A study of Mus musculus with 6 samples.

Results

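Ryk, a receptor for Wnt proteins, was 1 of 445 genes measured on the antisense strand by a custom array, and 6 of the 2156 named probes of the array were annotated to it on both strands. The 6 probes were all those that carried the symbol Ryk and its RefSeq accession NM_013649. Of these, 1 probe lay on the sense strand and 5 were AFAS probes (artificial antisense sequence probes), which are complementary to the annotated transcript and therefore bind labelled first-strand cDNA copied from RNA of the opposite strand. The gene was chosen on these same arrays, from the difference between tumors and normal glands of its probes on both strands, so its values in that contrast are given as a description without a test.

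The arrays compared 4 mammary tumors (tumors 1 to 4) with 2 normal mammary glands (normal glands 1 and 2) of GRS/A mice, an inbred strain in which the mouse mammary tumor virus (MMTV) induces mammary tumors. Total RNA of dissected tissue was labelled with 1 dye after random priming and hybridized to 1 array per sample. No treatment, transgene or age is given for either group, and nothing in the labels says that the samples of a group are from separate mice, so the spread between samples may be technical. The extraction protocol in the labels names brain, whereas the titles of all 6 samples name mammary tissue. The epithelial keratin genes Krt18, Krt19 and Krt14 had signals of at least 1591, 1816 and 1752 on every array. In RNA from whole tissue, fewer cells of a type and less RNA per cell cannot be told apart.

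Ryk is an atypical member of the receptor tyrosine kinase family. It crosses the membrane once, binds Wnt proteins through an extracellular domain related to Wnt inhibitory factor, and has a kinase domain that lacks catalytic activity. It acts in Wnt signalling beside or together with Frizzled receptors, which matters in this tissue because MMTV activates Wnt genes by inserting next to them. Natural antisense transcripts are RNAs read from the strand opposite a gene, and AFAS probes search for them without an annotated antisense transcript.

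The AFAS probes of Ryk are called AFAS-00 to AFAS-04 here, after the last digits of their names. Their sequences are shown because each probe is a different sequence that the annotation assigns to the antisense strand of Ryk. All 6 probes are 60 bases long, and the sequences are written as spotted, 5′ to 3′. The first 30 bases are given for the sense probe and for AFAS-00, and the whole probe is given for the others.
Sense probe: tggtcactacttttgggagtggtttgtctt
AFAS-00: gaaaacactctgcgttattacgtcatcgtt
AFAS-01: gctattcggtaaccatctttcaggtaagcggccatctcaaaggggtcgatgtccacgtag
AFAS-02: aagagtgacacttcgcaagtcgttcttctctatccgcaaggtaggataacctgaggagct
AFAS-03: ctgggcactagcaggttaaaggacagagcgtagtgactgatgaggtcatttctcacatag
AFAS-04: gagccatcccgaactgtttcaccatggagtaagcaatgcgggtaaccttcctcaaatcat

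The probes did not overlap each other. The longest stretch that the sense probe shared with the complement of a Ryk AFAS probe was 8 bases, and the longest that any pair of Ryk AFAS probes shared was 7 bases. The GC content was 38.3% for the sense probe, against a median of 43.3% over all sense probes. It was 43.3% for AFAS-00, 51.7% for AFAS-01 and 48.3% for each of AFAS-02, AFAS-03 and AFAS-04, against a median of 45% over all AFAS probes. Turned to the sense orientation, AFAS-00 had a stop codon in every reading frame, whereas AFAS-02 was free of stop codons in 2 of 3 frames and AFAS-01, AFAS-03 and AFAS-04 in 1. The sense probe and AFAS-00 each shared 1 stretch of at least 12 bases with another probe of the same strand, and AFAS-00 also shared one with the complement of another probe. No transcript or genome sequence was used, so the assignment of the probes to Ryk rests on their annotation alone. It is in doubt for AFAS-04, whose complement may be the sequence of another gene, and whether AFAS-04 reads the Ryk locus at all was not tested.

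The scanner files of the 4 tumor arrays gave a measure of detection that does not use the normal glands. It is not independent of the choice of Ryk, as the signals of these same tumors entered that choice. Detection is therefore given as a description. The sense probe was well above background in 4 of 4 tumors. Its mean spot signal before subtraction of background ranged from 1650 to 3330 scanner units over a local background of 60 to 64.

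Among the AFAS probes, AFAS-00 and AFAS-04 were also well above background in 4 of 4 tumors. Without AFAS-04, whose assignment to Ryk is in doubt, the dim probe AFAS-00 was the only AFAS probe of Ryk that met this criterion in every tumor. AFAS-00 had a mean signal of 106 to 124 over a local background of 59 to 67, which is 1.80 to 2.10 times that background. The software's error of its processed signal was 12.2% to 16.3%. AFAS-04 had a mean signal of 288 to 401 and lay 4.57 to 5.90 times over its local background, with an error of 10.1% to 10.2%. Both probes exceeded the 95th percentile of the 153 negative control spots on every tumor array. AFAS-04 also exceeded the brightest negative control on all 4 arrays, whereas AFAS-00 did so on 2 of them.

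The other 3 AFAS probes of Ryk were near the detection limit. AFAS-03 was called positive and significantly above background in 4 tumors but well above background in 2. AFAS-01 met these criteria in 3 and 1 tumors, and AFAS-02 in 1 and 1 tumors. Where AFAS-01 or AFAS-02 was not detected, the error equalled 99.5% to 99.7% of the signal. Among all AFAS probes of the array, 80.3% were positive and significant in every tumor and 59.3% were well above background in every tumor, against 96.3% and 89.1% of the sense probes. These shares are over unselected probes and are no test for Ryk.

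**Figure D1:**
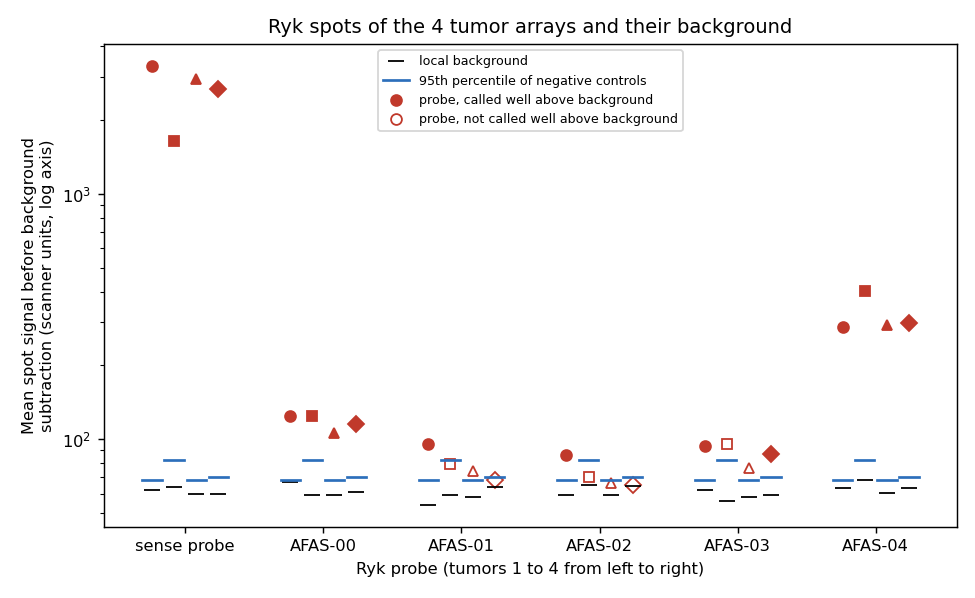
Mean spot signal before background subtraction (log axis, scanner units) of the 6 Ryk probes on tumor arrays 1 to 4. Filled points were called well above background and open points were not, short black bars give the local background and blue bars the 95th percentile of the negative controls of that array. The sense probe and AFAS-04 stand clear of both lines in every tumor, AFAS-00 lies at 106 to 124 just above them, and AFAS-02 exceeds the controls in tumor 1 only.

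The tumor arrays were not alike at low signal. In the deposited values, a signal under 5 or not significantly above background had been set to a floor of 5. Tumor 1 had 0.881% of all values at this floor, tumors 2, 3 and 4 had 11.7% to 12.9%, and normal glands 1 and 2 had 24.4% and 31.1%. Tumor 1 was the array on which all 6 Ryk probes were detected, against 5, 5 and 4 in tumors 2 to 4. The negative controls of tumor 2 spread more widely, with a 95th percentile of 8.41 on the scale of the deposited values, against 4.48 to 4.52 on the other 3 arrays. The part of these differences between arrays in the Ryk values was not tested.

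The signal of the sense probe was 3177, 1471, 3412 and 2743 in tumors 1 to 4, and 703 and 458 in normal glands 1 and 2. Every tumor lay above both normal glands, and the lowest tumor, tumor 2, was 2.09 times the higher normal gland. The mean was 2701 ± 865 (SD, n = 4) over the tumors and 581 ± 173 (SD, n = 2) over the normal glands. The log2 difference in signal, tumors minus normal glands, was 2.18 with a standard error (SE) of 0.52 from limma. Every tumor lay above both normal glands for 42.6% of all sense probes, and 14.4% of them passed an adjusted p of 0.05 in limma with higher signal in tumors. The difference of the Ryk sense probe exceeded the median of all 404 sense probes, 0.91, by 1.27, and 70 sense probes had a larger difference.

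AFAS-00 was the AFAS probe of Ryk that separated the groups most widely. Its signal was 63.4, 41.4, 50.5 and 52.5 in tumors 1 to 4 and lay at the floor of 5 in normal glands 1 and 2. No fold is given against values at the floor, and the log2 difference of 3.36 (SE 0.38) is set by it. With a floor of 20 the log2 difference was 1.36. Both normal glands at the floor and every tumor above it were found for 8.98% of all AFAS probes, and 0.457% passed an adjusted p of 0.05 in limma with higher signal in tumors. How far this probe lay from background in the normal glands is not known, as their scanner files were not used here.

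AFAS-04, the probe in doubt, had signals of 213, 279, 268 and 253 in tumors 1 to 4, and of 196 and 132 in normal glands 1 and 2. Every tumor again lay above both normal glands, as for 21.6% of all AFAS probes, but the lowest tumor exceeded the higher normal gland by a factor of only 1.09. The means were 254 ± 28.8 (SD, n = 4) and 164 ± 45.2 (SD, n = 2), with a log2 difference of 0.65 and an SE of 0.38. This difference was 0.21 above the median of all AFAS probes, 0.44, and 714 of the 1749 AFAS probes had a larger one.

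The groups overlapped for the other 3 probes. AFAS-03 had signals of 34.0, 30.3, 18.2 and 26.1 in tumors 1 to 4, and of 32.1 and 5 in normal glands 1 and 2. Its normal glands thus enclosed 3 of the 4 tumors, and its log2 difference of 1.06 (SE 0.78) became -0.28 without normal gland 2, the one at the floor. AFAS-01 had signals of 29.4, 7.70, 10.7 and 5 in tumors 1 to 4 and lay at the floor in normal glands 1 and 2. AFAS-02 had a signal of 19.9 in tumor 1 and was at the floor on the 5 other arrays. For both of them the highest value was that of tumor 1, the array with the fewest values at the floor.

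**Figure D2:**
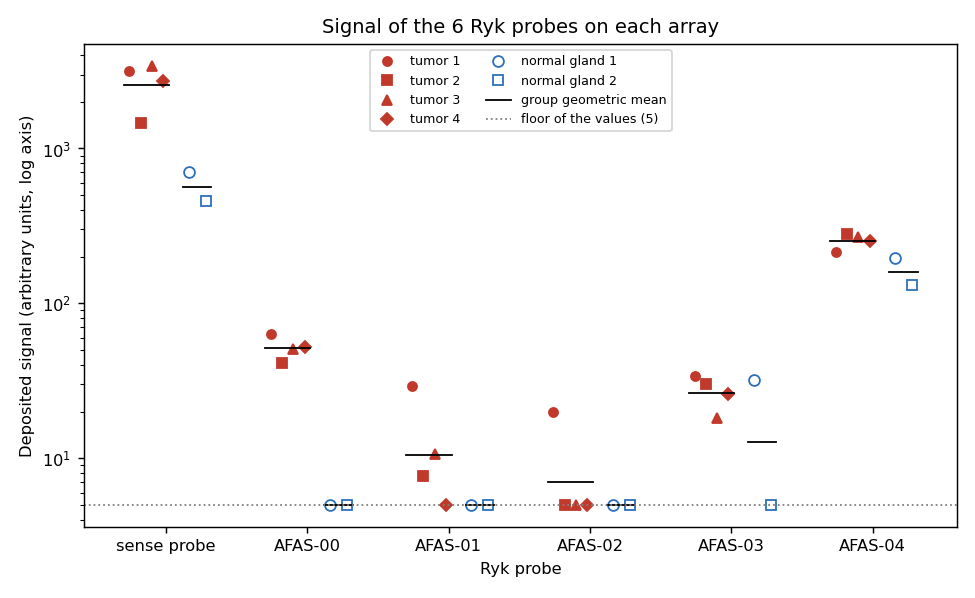
Deposited signal (log axis, arbitrary units) of the 6 Ryk probes in 4 tumors (filled red) and 2 normal glands (open blue), with the geometric mean of each group as a black bar and the floor of 5 as a dotted line. Tumors lie above both normal glands for the sense probe, for AFAS-00, whose normal glands are at the floor, and narrowly for AFAS-04.

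The size of these differences depended on the scaling of the arrays. The log2 difference of the sense probe was 2.18 as deposited, 1.91 after scaling to the median, 1.78 after scaling to the 75th percentile and 1.71 after quantile normalization. Over the same settings, that of AFAS-00 was 3.36, 3.01, 2.79 and 2.59, and that of AFAS-04 was 0.65, 0.39, 0.25 and 0.35. The median of all sense probes moved from 0.91 to 0.64, 0.51 and 0.50, and the median of all AFAS probes moved from 0.44 to 0.20, 0.11 and -0.12. All Ryk probes except AFAS-02 lay above the median of their strand under each of these scalings. After quantile normalization AFAS-02 was at -0.36, below the median of -0.12, and AFAS-03 at -0.11 lay barely above it.

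**Figure D3:**
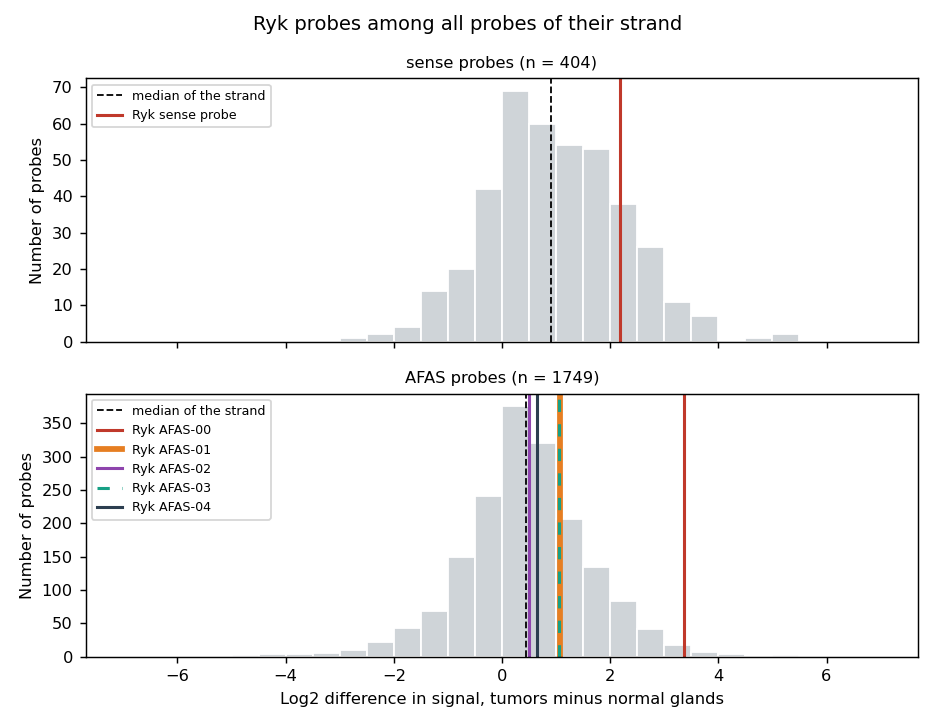
Number of probes by log2 difference in signal, tumors minus normal glands, for 404 sense and 1749 AFAS probes in bins of 0.5, with the Ryk probes as coloured lines and the median of the strand as a dashed black line. The Ryk sense probe is at 2.18 and AFAS-00 at 3.36, while the other 4 AFAS probes lie between 0.50 and 1.07, near the bulk of their strand.

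Among the tumors alone, the Ryk probes above the floor on all 4 arrays varied less, on the deposited scale, than the median probe of their strand. The gene was chosen for its contrast on these same tumor values. Such a choice favours a small spread, so these values are a description. The SD of the log2 signal over 4 tumors was 0.55 for the sense probe, against a median of 0.72 over the 385 sense probes above the floor in every tumor. It was 0.25 for AFAS-00, 0.39 for AFAS-03 and 0.17 for AFAS-04, against a median of 0.82 over 1377 AFAS probes. Of those AFAS probes, 4.07% had a smaller SD than AFAS-00 and 1.60% a smaller SD than AFAS-04. These shares set a gene chosen for its contrast against unselected probes and are no test. The sense probe ranged 2.32-fold between tumors, AFAS-00 1.53-fold and AFAS-04 1.31-fold. Without tumor 2 the SD of the sense probe was 0.16. After quantile normalization the SD of the sense probe was 0.72, no longer below the strand median of 0.71, and those of AFAS-00 and AFAS-04 were 0.40 and 0.34, against a median of 0.75. The tumors ranked differently by probe. Tumor 2 was lowest for the sense probe and for AFAS-00, at -0.81 and -0.31 from the mean log2 signal of the tumors, but was highest for AFAS-04, at 0.15. Tumor 1, highest for AFAS-00 at 0.30, was lowest for AFAS-04 at -0.24.

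The Wnt pathway was thinly covered. Of 115 other pathway genes listed, 12 were on the array, and they included no Wnt ligand and no secreted or intracellular inhibitor. These 12 genes had 10 sense probes, all with a positive log2 difference, as 79.5% of all 404 sense probes had, and their median was 1.12, against 0.91 over all sense probes. In limma 1 of the 10 passed an adjusted p of 0.05 with higher signal in tumors, against 14.4% of all sense probes, and 3 passed an unadjusted p of 0.05 with higher signal, as did 36.4% of all sense probes. Their 49 AFAS probes had a median of 0.64, against 0.44 over all AFAS probes. Of these, 0 passed an adjusted p in limma, where 4 had higher and 1 had lower signal in tumors at an unadjusted p of 0.05, against 13.0% and 3.26% of all AFAS probes. Unadjusted, the methods' t-test (the plain test that the study names) passed 3 of the 49 on linear and 5 on log2 signals, against 9.09% and 12.1% of all AFAS probes, and 0 after adjustment. The balance of directions over all AFAS probes depended on the scale of this test, with 74 higher and 85 lower in tumors on linear signals and 180 higher and 31 lower on log2 signals.

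The other Wnt receptor on the array was Fzd3, a Frizzled receptor. Its sense signal was 129, 122, 157 and 128 in tumors 1 to 4, and 58.9 and 50.8 in normal glands 1 and 2. As for Ryk, every tumor lay above both normal glands, but the log2 difference of 1.29 (SE 0.41) did not pass (adjusted p = 0.0657 in limma). Of the 4 AFAS probes of Fzd3, the one with the smallest p had signals of 61.4, 70.2, 62.2 and 65.9 in tumors and of 38.5 and 28.5 in normal glands, with an adjusted p of 0.266 in limma.

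Prkca, a protein kinase C that acts in the calcium branch of Wnt signalling, was the gene of the pathway that passed. Its sense probe had signals of 46.4, 33.0, 34.2 and 41.0 in tumors 1 to 4, whereas normal glands 1 and 2 lay at the floor of 5, as for 2.97% of sense probes (adjusted p = 0.0207 in limma). With a floor of 20 its adjusted p was 0.0737. This probe was linked to Prkca by its place in the value table rather than by accession. The 3 AFAS probes of Prkca were not alike. One lay below both normal glands in every tumor, as did 6.92% of all AFAS probes, with signals of 39.2, 184, 9.84 and 8.51 in tumors 1 to 4, and of 665 and 868 in normal glands. Its adjusted p was 0.176 in limma, which did not pass. Another lay above both normal glands in every tumor, as did 21.6%, with 744, 738, 279 and 524 in tumors against 276 and 195 in normal glands (log2 difference 1.20, adjusted p = 0.337 in limma). The groups overlapped for the remaining one.

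Among genes listed as targets of Wnt signalling, the 7 sense probes had positive log2 differences, against 79.5% of all sense probes, and 0 passed in limma, against 14.4%. Of these, 1 passed at an unadjusted p of 0.05, against 36.4%, and 1 by the methods' t-test unadjusted on either scale, against 15.8% of all sense probes on linear and 30.2% on log2 signals. Fst, a secreted inhibitor of activin, had the smallest p (log2 difference 1.95, SE 0.59, adjusted p = 0.0566 in limma). Ccnd1, the cell cycle regulator cyclin D1, had signals of 1120, 264, 2124 and 1456 in tumors 1 to 4, and of 401 and 264 in normal glands, so that tumor 2 lay at the level of the lower gland. For Met, the receptor of hepatocyte growth factor, an AFAS probe was at 60.4, 46.6, 29.6 and 73.2 in tumors and lay at the floor in normal glands 1 and 2 (adjusted p = 0.0556 in limma).

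Of the receptor tyrosine kinase family, to which Ryk belongs, 15 other genes were on the array. Of their 14 sense probes, 2 passed in limma with higher signal in tumors (14.4% of all sense probes did), 13 had a positive log2 difference (79.5% did), and the median was 0.98 against 0.91 over all sense probes. Erbb3, a receptor of neuregulins that like Ryk has an impaired kinase, had signals of 1579, 1742, 2170 and 3608 in tumors 1 to 4, and of 669 and 444 in normal glands (log2 difference 1.98, SE 0.51, adjusted p = 0.0414 in limma). Fgfr4, a fibroblast growth factor receptor, had a log2 difference of 1.63 (SE 0.44, adjusted p = 0.0479 in limma), and its sense probe was linked by place. Epha3, an ephrin receptor, came next by p with 1.45 (SE 0.48, adjusted p = 0.0749 in limma) and did not pass. Its sense probe was also linked by place. Of the 64 AFAS probes of these genes 0 passed in limma, against 0.457% of all AFAS probes with higher signal in tumors. At an unadjusted p of 0.05, 7 were higher and 3 lower in tumors, against 13.0% and 3.26% in limma. The methods' t-test passed 5 on linear and 7 on log2 signals unadjusted, against 9.09% and 12.1% of all AFAS probes. Their median of 0.43 lay beside 0.44 for all AFAS probes.

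**Figure D4:**
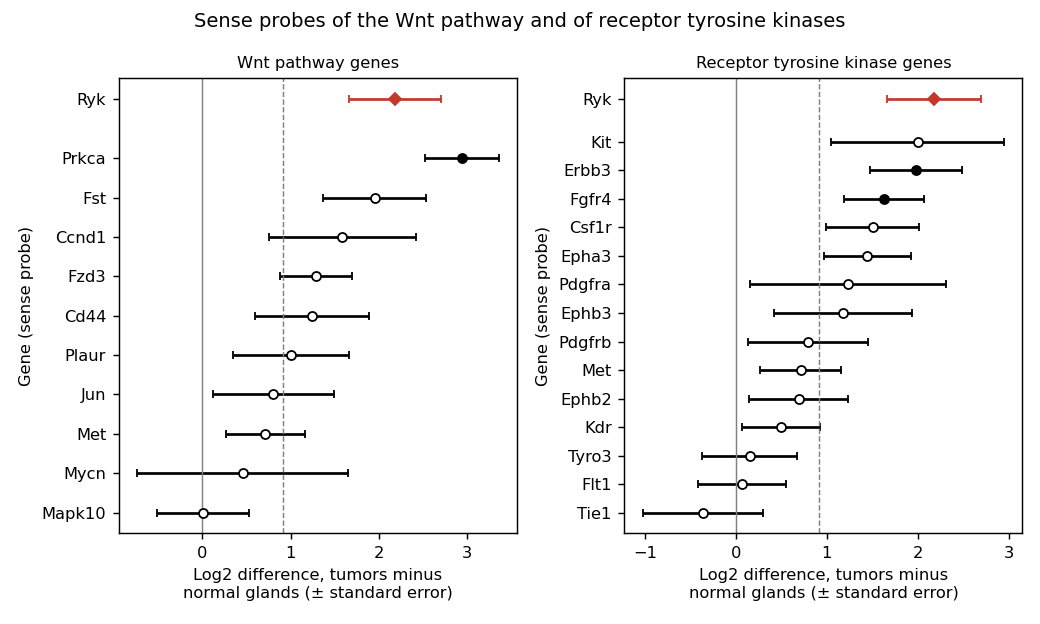
Log2 difference in signal, tumors minus normal glands, with its standard error from limma, of the sense probes of 10 Wnt pathway genes and 14 receptor tyrosine kinases. Filled points passed an adjusted p of 0.05, Ryk is shown in red without a test, and the dashed line is the median of all sense probes, 0.91. Prkca, whose normal glands are at the floor of 5, is at 2.94, and at 0.94 with a floor of 20, where Ryk stays at 2.18. Kit and Erbb3 lie within its standard error in the right panel.

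Genes whose proteins are known to bind, fold or cut Ryk were represented by Ephb2, Ephb3, Src, Psen2 and Hsp90ab1. All 5 sense probes had positive log2 differences, as did 79.5% of all sense probes. That of Ephb3 was linked by place. Hsp90ab1, the chaperone Hsp90 beta, was higher in tumors, with 15406, 19064, 15551 and 16350 in tumors 1 to 4 against 3328 and 1843 in normal glands (log2 difference 2.74, SE 0.45, adjusted p = 0.0207 in limma). Psen2, a subunit of the gamma-secretase complex that cleaves Ryk, had a sense log2 difference of 0.71 (SE 0.51, adjusted p = 0.354 in limma). Of the genes known as insertion sites of MMTV, Fgf4, Fgf8, Notch4, Map3k8 and Ccnd1 were on the array, and all 5 of their sense probes had positive log2 differences (79.5% of all sense probes did), with a median of 1.15 against 0.91. In limma 0 of the 5 passed at an adjusted or an unadjusted p of 0.05, against 14.4% and 36.4% of all sense probes, nor did any by the methods' t-test, against 15.8% on linear and 30.2% on log2 signals. Of their 20 AFAS probes 0 passed in limma and 2 had higher signal in tumors at an unadjusted p of 0.05, against 0.457% and 13.0% of all AFAS probes, and their median was 0.70 against 0.44. The methods' t-test passed 1 of the 20 on linear and 4 on log2 signals unadjusted, against 9.09% and 12.1%, and 0 after adjustment. Fgf8, a fibroblast growth factor, stood at 7404 in tumor 2 and at 293 to 515 in the other tumors, with 487 and 424 in normal glands.

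Like the Ryk sense probe, the summed signal of the luminal epithelium markers was higher in every tumor than in both normal glands. Their 5 sense probes (Krt18, Krt19, Esr1, Prlr and Gata3) summed to 38627, 29862, 32076 and 132267 in tumors 1 to 4, against 10383 and 10549 in normal glands 1 and 2. None of the 5 was at the floor on any array. Krt18 was the brightest in tumors 1 to 3, whereas in tumor 4 Krt19 at 41034 slightly exceeded Krt18 at 40295. In normal glands 1 and 2 Esr1 was the brightest, at 4339 and 5416 against 2643 and 1591 for Krt18. Of these, 2 passed in limma, against 14.4% of all sense probes. Krt18, a keratin of luminal cells, had a log2 difference of 3.33 (SE 0.56, adjusted p = 0.0207 in limma, linked by place), and Gata3, a luminal transcription factor, had 2.55 (SE 0.70, adjusted p = 0.0483 in limma). The call of Gata3 was lost under each of the 3 other scalings (adjusted p = 0.0788 to 0.107 in limma) and with a floor of 20 (0.0590). Krt19 and the prolactin receptor Prlr had 2.31 and 3.54 (adjusted p = 0.100 and 0.0566 in limma), and the estrogen receptor Esr1 had -1.35 (adjusted p = 0.340 in limma). The summed signal of the immune markers was also higher in every tumor than in both normal glands, narrowly so in tumor 3, and all 5 of their sense probes had positive differences, as 79.5% of all sense probes did, with a median of 1.41 on the log2 scale. The part of luminal or immune cells in the Ryk values was not tested.

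The sense probes listed for other cell types were few. The basal keratin Krt14 had a log2 difference of 0.08 (SE 0.57, adjusted p = 0.942 in limma). The 3 fibroblast probes (Vim, Pdgfra and Pdgfrb) summed to 872, 923, 491 and 1098 in tumors 1 to 4 and to 874 and 535 in normal glands, and the brightest was that of Vim. The probes of Vim and Pdgfra were linked by place, as was the endothelial probe of Flt1. The 4 endothelial probes (Pecam1, Kdr, Flt1 and Tie1) summed to 3723, 5260, 3301 and 5748 in tumors and to 3971 and 3052 in normal glands, and the brightest was that of Flt1, except in tumor 2, where Pecam1 stood at 2441 and Flt1 at 1602. The 5 immune probes, of which that of Cd4 was the brightest, summed to 28564, 39568, 11668 and 16346 in tumors and to 11634 and 7076 in normal glands. Of the fibroblast, endothelial and immune sense probes 0 passed in limma, against 14.4% of all sense probes. At an unadjusted p of 0.05, which 36.4% of all sense probes passed with higher signal in tumors, Csf1r, a receptor of macrophages, was the 1 that passed (log2 difference 1.51, adjusted p = 0.0774 in limma), while the methods' t-test passed 0 on linear and 1 on log2 signals, against 15.8% and 30.2%. On the antisense strand, 1 of 22 endothelial probes, that of Thbd, and 1 of 26 immune probes, that of Cd86, passed in limma with higher signal in tumors (adjusted p = 0.0273 each), against 0.457% of all AFAS probes. With 75th percentile scaling neither passed (adjusted p = 0.0547 for Thbd and 0.0525 for Cd86 in limma). Drd4, a dopamine receptor gene listed for brain, had a sense difference of -0.50 (adjusted p = 0.687 in limma, linked by place). Both AFAS probes of the secretory gene Glycam1 had signals below both normal glands in every tumor, as for 6.92% of all AFAS probes, with a median log2 difference of -3.07, and neither passed. No adipocyte marker listed was on the array.

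The calls of these list genes depended on single arrays, on the scaling and on the test. Of the 8 probes of Prkca, Erbb3, Fgfr4, Hsp90ab1, Krt18, Gata3, Thbd and Cd86 that passed in limma, 0 passed without tumor 1, tumor 4 or normal gland 2, with adjusted p from 0.0563 to 0.505. Without normal gland 1, Hsp90ab1 alone of them passed (adjusted p = 0.0477). Of the same 8 probes 3 passed with 75th percentile scaling, 5 with median scaling, 4 with quantile normalization and 6 with a floor of 20. By the methods' t-test on log2 signals 1 passed after adjustment. With the replicate number as a block, which leaves only tumors 1 and 2 in the comparison, 0 passed.

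The sense probes whose profile over the 6 arrays was nearest to that of Ryk were found by the root mean square difference of log2 signals centred on their own mean. For the Ryk sense probe these were Dsc2, a desmosomal cadherin, at 0.15, Chrnb1, a subunit of the acetylcholine receptor, at 0.17, Rfc1, a subunit of the clamp loader of DNA replication, at 0.21, the ribosomal protein gene Rps29 at 0.22 and the transcription factor gene Ets2 at 0.26. The median over all other sense probes was 1.01. The named probes lie below it by the way they were picked, and the 6 arrays hold the contrast for which Ryk was chosen. Dsc2 had signals of 1263, 521, 1462 and 1319 in tumors 1 to 4, and of 263 and 200.1 in normal glands, with tumor 2 lowest among the tumors as for Ryk. The matching itself favours such a likeness.

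For AFAS-04, the brightest of the AFAS probes annotated as Ryk but one that may belong to another gene, the nearest AFAS probes were those of Rad23b at 0.08, Plcb3 at 0.14, Hbegf at 0.18, Fzd3 at 0.18 and Dmc1 at 0.18, against a median of 0.88 over all other AFAS probes. The AFAS probe of Rad23b, a DNA repair gene, had signals of 533, 721, 730 and 631 in tumors 1 to 4, and of 461 and 307 in normal glands. As on the sense strand, the named probes were picked for being nearest. With 6 arrays in 2 groups, such likeness is a description of these samples.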

How the data were processed

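The authors hybridized 6 samples to custom 60-base arrays and deposited scanner files (Agilent Feature Extraction 9.1.3.1) of the tumors and a table of scaled signals for all 6 arrays. The deposited intensity is background-subtracted, multiplied by 1 factor per array (0.957, 0.822, 1.16 and 1.05 for tumors 1 to 4) and set to 5 where it was under 5 or not significantly above background. The table names no probe, and 2153 of its 2156 entries were matched to probes by their 4 tumor signals. Gene names came from probe annotations and a RefSeq gene table (GRCm38.p6). Masked spots (39878) were not used. No genome build is named, so coordinates were left out.

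The groups were compared on log2 signals in limma 3.58.1 (R 4.3.3, lmFit and eBayes, two-sided). The 404 sense and the 1749 AFAS probes were fitted and adjusted (Benjamini-Hochberg) apart. The step was tested on simulated data with Gaussian noise and no floor, which does not cover values at the floor. Python 3.11.15, numpy 2.4.6 and pandas 2.3.3 gave the other values. Array number limits the precision. Tumors 3 and 4 shared 1 slide, and slide could not be fitted as a block, since those of the normal glands were not used here. The members and gene lists were chosen with earlier results of these data known. Named genes were all Ryk probes, list genes past the threshold or with the smallest p, the markers on the array and the 5 nearest profiles on each strand, though not every gene that this gives is named. Alternatives were a floor of 20, a filter on mean signals of at least 100, other scalings, trend and robust estimation, the methods' t-test, the replicate number as a block, tumors 3 and 4 averaged, each array left out, and for detection and spread normexp correction (offset 50) and other detection flags. Leaving out sense probes linked by place was added after seeing the data. Placing the probes along the Ryk protein had been planned and was not done, as no protein sequence was used here. 1 listed marker is not reported here.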

Additional observations from a re-analysis of the deposited data

Results flagged for a closer look

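In groups of 4 tumors, a value far from the others was sought among 14 probes, and 3 of them had 1 tumor whose gap to the nearest other, divided by the range, exceeded Dixon's 95% critical value. Chance gives such a gap in about 1 group in 20. For Ryk AFAS-02 the gap share was 1.0, because tumor 1 stood at 19.9 and the other 3 tumors at the floor of 5. Any value above 3 values at the floor gives this share, so the criterion decides nothing for AFAS-02. For the sense probe of Krt18 it was 0.901, with tumor 4 at 40295 and the others at 15531 to 17988. For the AFAS probe of Thbd it was 0.929, with tumor 2 at 1257 and the others at 1983 to 2038.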

How the results depend on the processing

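The log2 difference of the Ryk sense probe kept its sign and moved by less than the spread between samples under every setting tried, and it ranged from 1.87 to 2.49 with each array left out. Leaving out any array could not change this sign, as every tumor lay above both normal glands. Nor could the log2 difference move with a floor of 20, as no value of this probe was that low. For AFAS-00 it was 2.79 with 75th percentile scaling, 3.01 with median scaling, 2.59 with quantile normalization and 1.36 with a floor of 20 (3.26 to 3.46 with each array left out, which is no test of the normal glands, as both lie at the floor and leaving out either cannot move it). For AFAS-04 it was 0.25, 0.39 and 0.35 under the same 3 scalings (0.37 to 0.94 with arrays left out). After quantile normalization it was 0.0164 for AFAS-01, -0.36 for AFAS-02 and -0.11 for AFAS-03. With a floor of 20 it was 0.14, 0 and 0.10 for the same probes. With arrays left out it was 0.57 to 1.42 for AFAS-01, 0 to 0.66 for AFAS-02 and -0.28 (without normal gland 2) to 2.40 for AFAS-03.

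On average 5 of the 6 Ryk probes were detected per tumor, against 4 by the stricter flag and 2 with a signal of at least 100. These counts include AFAS-04, whose assignment to Ryk is in doubt. The 2 probes with a signal of at least 100 were the sense probe and AFAS-04. The SD among tumors after quantile normalization was 0.40 for AFAS-00, 0.58 for AFAS-03 and 0.34 for AFAS-04, and with normexp correction it was 0.11 for AFAS-00 and 0.0633 for AFAS-03. The offset of 50 in that correction shrinks the log2 spread of dim probes, and no strand median is given on its scale. With each tumor left out the SD was 0.16 to 0.67 for the sense probe, 0.17 to 0.31 for AFAS-00, 0.19 to 0.48 for AFAS-03 and 0.0714 to 0.21 for AFAS-04.

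In limma 59 sense and 8 AFAS probes passed. With 75th percentile scaling 17 sense, 2 AFAS and 0 receptor tyrosine kinase probes passed, with median scaling 17 sense and 0 kinase probes, and with quantile normalization 24 sense, 0 Wnt pathway and 0 kinase probes. A floor of 20 left 4 AFAS probes and the filter on mean signals of at least 100 left 5. Trend and robust estimation gave 2 Wnt pathway probes and 1 kinase probe. The methods' t-test unadjusted passed 159 AFAS (74 higher and 85 lower in tumors), 6 Wnt pathway and 7 kinase probes on linear signals, and 122 sense, 211 AFAS, 8 Wnt pathway and 11 kinase probes on log2 signals. After Benjamini-Hochberg adjustment it passed 0 sense, AFAS, Wnt pathway and kinase probes on linear signals, and 1 sense, 0 AFAS and 0 kinase probes on log2 signals. With tumors 3 and 4 averaged, 92 sense, 14 AFAS, 2 Wnt pathway and 4 kinase probes passed. Without sense probes linked by place, 0 Wnt pathway probes and 1 kinase probe passed. With each array left out, 0 (without tumor 4 or normal gland 2) to 89 (without tumor 3) sense probes, 0 to 15 (without tumor 2) AFAS probes, 0 to 3 Wnt pathway probes and 0 to 3 kinase probes passed. Without tumor 2, the AFAS probes that passed were 7 higher and 8 lower in tumors, whereas with all arrays 8 were higher and 0 lower. After quantile normalization 5 were higher and 2 lower. The causes were not tested.

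With the replicate number as a block, 0 sense, 0 AFAS, 0 Wnt pathway and 0 kinase probes passed in limma. Tumors 3 and 4 have no gland of the same number. This setting therefore compares tumors 1 and 2 with normal glands 1 and 2 alone and leaves little to estimate the error. Tumors and normal glands of the same number did not deviate together (correlations of -0.02 and 0.05). The deviations of 2 normal glands from their mean mirror each other, so this check cannot tell whether a tumor and a gland shared a mouse. The block kept the sign of every Ryk difference. Dim signals limit the AFAS probes, whose values at the floor have no order, and 2 normal glands limit every comparison.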
